A study of Rattus norvegicus with 2 samples.

Results

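The small (40S) subunit of the ribosome was represented on the array by 5 spots whose deposited name holds "40S ribosomal" outside the housekeeping row, out of 1185 spots in all. Of the 5, Rps12, Rps19 and Rps3a are described, by their protein names S12, S19 and S3A, and every count of 40S genes that follows is over these 3. The selection used names and positions, not signal, but S3A and S19 were singled out with the knowledge that they go in opposite directions. Another 40S protein, S29, sits in the housekeeping row, and a spot named ribosomal protein S4 lacks the term 40S and was taken up after its values were seen. Both are outside the set and serve as comparison.

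The carotid body senses oxygen in arterial blood. Its cells were cultured from Sprague Dawley rats, with 16 carotid bodies pooled per culture. The normoxia group was kept in 21% oxygen and the chronic hypoxia group in 1% oxygen, and both are labelled as 7 days of culture. The medium of both held serum and nerve growth factor, and the labels give no drug or transgene for either. Amplified RNA was copied into cDNA labelled with 32P and hybridised to Atlas Rat nylon membranes, 3 per condition. The labels call the membranes replicates without saying that each had its own culture, so every p-value reflects only how these membranes vary, and that variation may be technical. In RNA from whole cultures, fewer cells of a type and less RNA per cell cannot be told apart.

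The 40S subunit binds the messenger RNA, scans for the start codon and hosts the decoding site, while the large (60S) subunit forms the peptide bonds. Each ribosome holds a single copy of nearly every ribosomal protein, and cells normally keep these proteins in balance with ribosomal RNA. Their transcripts begin with a pyrimidine tract (the TOP motif) through which mTOR signalling sets their translation. Low oxygen is known to dampen mTOR signalling and protein synthesis in many cell types. The membranes measured RNA, not translation.

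None of the 3 genes passed the test between chronic hypoxia and normoxia, and they did not share a direction. S12 and S19 had higher mean signal in chronic hypoxia, and S3A had lower mean signal. The largest difference was that of S3A, -1.95 on the log2 scale (SE 0.59, limma adjusted p = 0.645). Of the 3 genes, 0 had an adjusted p under 0.05, where 0% of the 1038 tested genes did. At an unadjusted p under 0.05 there was 1, S3A, against 7.23% of tested genes. The median difference of the 3 was 1.16, which is the value of S19, beside 0.03 over all tested genes.

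Sequences near the gene starts are shown to describe their pyrimidine runs. Some longest run is found for any gene, so having one is not a trait that these genes share. In the RefSeq promoter table of rat assembly GRCr8, Rps12, Rps19 and Rps3a were listed. The longest run of C or T within 50 bases on either side of the annotated start, on the gene's own strand, is printed in capitals.
Rps12: tgcggccaccagcggCCTTTTCCCCTgccg
Rps19: aaaccccgtcgTTCCCTTTCCCCTggctgg
Rps3a: ttgtacttccgCCCTTTTggctctcagagc
These stretches of 30 bases lie at chr1:23500095-23500124 (plus strand), chr1:89608692-89608721 (plus strand) and chr2:173827025-173827054 (minus strand).

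The pyrimidine run held 11 bases for Rps12, 13 for Rps19 and 7 for Rps3a. It began 35 bases after the annotated start for Rps12, 15 after it for Rps19 and 1 base before it for Rps3a. Annotated starts need not be the starts used in these cells. Runs at least as long occurred in 12.4% of the 33469 promoters for Rps12, 6.1% for Rps19 and 50.6% for Rps3a. The run of Rps3a is thus of a common length, and the runs are a description of letters. A run of at least 8 bases was present for 59 of 63 cytosolic ribosomal protein genes in the table (93.7%) and for 36.5% of all promoters. Rps3a, with 7 bases, is among the ribosomal protein genes without such a run. That count takes runs anywhere in the window and does not identify the TOP motif, which begins the transcript. By the annotated starts, the runs of Rps12 and Rps19 lie inside the transcript, and that of Rps3a spans the start. The count therefore does not show that Rps3a lacks a TOP motif.

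The membranes differed in background and contrast. Median intensity lay between 1704 and 3409 on 5 membranes and at 16411 on chronic hypoxia membrane 3. A spot was counted as above background if it was brighter than its membrane's median plus 3 spreads, a spread being taken from the values under that median. By that rule 139 to 205 spots were above background on 5 membranes and 72 on chronic hypoxia membrane 2. That membrane stood apart, with rank correlations over all spots of 0.267 to 0.325 with the others, its own group included. Chronic hypoxia membranes 1 and 3 correlated at 0.772, and every other pair without membrane 2 at 0.402 to 0.580. Values without chronic hypoxia membrane 2 are therefore given for each 40S gene. Of 6 glomus cell rows 4 were detected in this sense on at least 3 membranes, and chromogranin A and secretogranin II were above background on none. Both endothelial rows and the gelatinase A row also reached 3 membranes, against 0 of 6 glial rows. Rows of cells other than glomus cells were thus detected as well, and the part of cell makeup in the 40S values was not tested.

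Detection of the 40S rows was high for this array. S12 was above background on 6 membranes, S3A on 5 and S19 on 3. Thus 3 of 3 reached at least 3 membranes, against 12.8% of all spots. This was not particular to the 40S rows, since 7 of 7 large subunit rows and 6 of 7 other translation genes did so too. On chronic hypoxia membrane 2 S12 was above background, and S19 and S3A were not. The split was narrow, with S12 at 6609, S19 at 5785 and S3A at 5582 around a threshold of 6406.

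**Figure D1:**
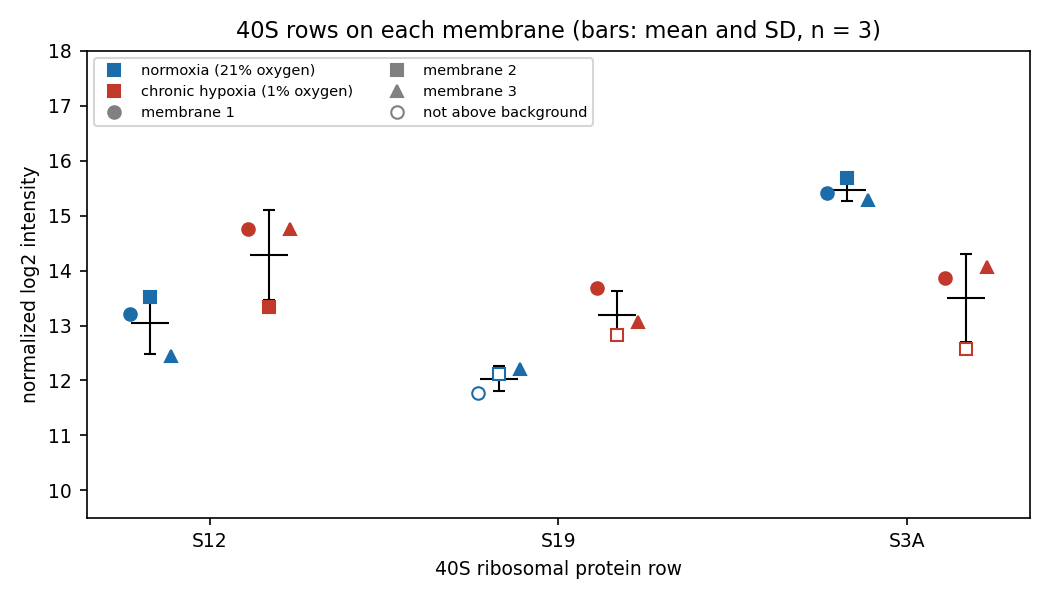
Normalized log2 intensity of the 3 40S rows on each membrane, with normoxia in blue and chronic hypoxia in red, marker shape giving the membrane number and open markers a spot not above background. Horizontal bars and error bars are mean and SD (n = 3); the S3A and S19 groups do not overlap, while the S12 groups do.

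S12, a protein of the beak on the subunit's head, was after normalization brighter on 2 of 3 chronic hypoxia membranes than on any normoxia membrane. Its deposited intensities were 10993, 11267 and 12740 in normoxia (membranes 1, 2 and 3, the order used throughout) and 28940, 6609 and 46015 in chronic hypoxia. That on chronic hypoxia membrane 1 exceeded every normoxia value, and that on membrane 2 lay below them all. On chronic hypoxia membrane 3 the dimmest spot of all had 14591, above each normoxia value of S12. The intensity there therefore says nothing about S12 without background removal. Deposited intensities include background and are not scaled between membranes. After background correction and quantile normalization S12 had 13.21, 13.52 and 12.44 on the log2 scale in normoxia and 14.76, 13.34 and 14.76 in chronic hypoxia. The groups overlapped through chronic hypoxia membrane 2 alone. Means were 13.05 ± 0.56 (SD, n = 3) and 14.29 ± 0.82 (SD, n = 3), a difference of 1.23 ± 0.62 (SE, limma adjusted p = 0.645). The 95% interval ran from -0.15 to 2.62. Without chronic hypoxia membrane 2 the difference was 1.70.

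By its rank among the 1185 spots S12 stood at 74, 61 and 119 in normoxia, counted from the brightest. In chronic hypoxia it stood at 27, 67 and 27. Quantile normalization sets each value by the spot's rank on its membrane, so the ranks restate the normalized values. The neighbouring position holds L44 (L36A), a bright large subunit spot that exceeded S12 on 5 of 6 membranes. L44 differed by 0.28 between conditions. On the other side lies S4, brighter than S12 on 3 of 6 membranes, all of them normoxia, and dimmer on every chronic hypoxia membrane. Spread of signal between these spots was not tested.

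S19, a head protein needed to mature the RNA of the small subunit and mutated in Diamond-Blackfan anaemia, was higher on every chronic hypoxia membrane after normalization. Its deposited intensities were 4086, 6106 and 9834 in normoxia and 13172, 5785 and 27619 in chronic hypoxia. Above background were normoxia membrane 3 and chronic hypoxia membranes 1 and 3, so 3 of its 6 values are those of a dim spot. The normalized log2 values were 11.77, 12.12 and 12.20 in normoxia and 13.68, 12.82 and 13.07 in chronic hypoxia. The groups did not overlap on this scale, with means of 12.03 ± 0.23 (SD, n = 3) and 13.19 ± 0.44 (SD, n = 3). The deposited intensities did overlap, since 5785 on chronic hypoxia membrane 2 lay below 6106 and 9834 in normoxia. The difference was 1.16 ± 0.54 (SE), and its 95% interval ran from -0.04 to 2.37 (limma adjusted p = 0.645). Without chronic hypoxia membrane 2 the difference was 1.50. In ranks S19 stood at 193, 146 and 139 in normoxia and at 56, 97 and 81 in chronic hypoxia. The adjacent L21 spot was brighter than S19 on 5 of 6 membranes, with intensities of 10111, 7027 and 17926 in normoxia and 20450, 4748 and 35747 in chronic hypoxia. Like S19, L21 had its best ranks on chronic hypoxia membranes 1 and 3, at 42 and 51. The part of L21 in the S19 values was not tested. L12, on the other side, was brighter than S19 on 1 membrane.

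S3A lies on the platform, near the channel through which the messenger RNA leaves, and its deposited name also gives Fte-1, a v-fos transformation effector. Its intensities were 55563, 36110 and 63789 in normoxia, the last within 5% of the ceiling of 65535. In chronic hypoxia they were 14112, 5582 and 38331, where membrane 2 was not above background and membrane 3 has the high background given above. The normalized log2 values were 15.41, 15.68 and 15.28 in normoxia against 13.86, 12.58 and 14.07. All chronic hypoxia values lay below all normoxia values. The means were 15.46 ± 0.20 (SD, n = 3) and 13.50 ± 0.80 (SD, n = 3). On this scale normoxia was 3.87-fold brighter, with a 95% interval of the log2 difference from -3.27 to -0.64 before any adjustment over genes. The near-ceiling value makes the size inexact. Without chronic hypoxia membrane 2 the difference was -1.25.

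The ranks of S3A likewise restate its normalized values and are no separate check. S3A stood at 13, 7 and 16 from the brightest on the normoxia membranes and at 49, 108 and 44 in chronic hypoxia. Among the 152 spots above background on at least 3 membranes, its difference was the third lowest, and that of S12 was number 10 from the top. The position next to S3A holds eIF-5, an initiation factor that promotes joining of the subunits. That spot was brighter than S3A on 4 of 6 membranes, among them chronic hypoxia membranes 1 and 3, with intensities of 62089 and 53496. It differed by -0.72 between conditions ± 0.80 (SE, limma adjusted p = 0.835).

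Over the 3 genes, the groups did not overlap with chronic hypoxia higher for 1 (S19) and lower for 1 (S3A). Over all tested genes 6.45% were higher and 7.42% lower without overlap. With so few genes these counts are given as a description. For S19 and S3A the exact permutation p, two-sided over the 20 assignments of the membranes, was 0.10, the smallest this design can give. It was 0.2 for S12.

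**Figure D2:**
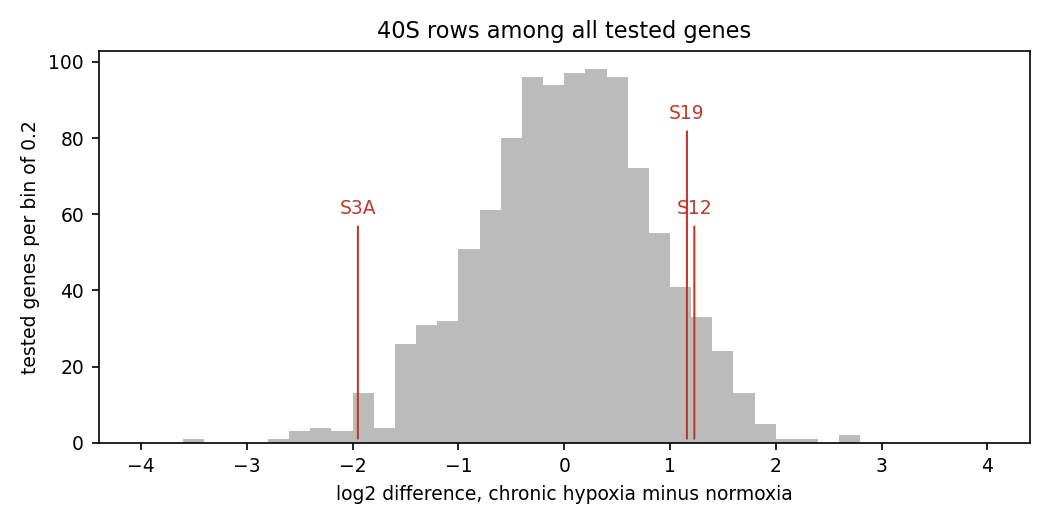
Histogram of the log2 difference (chronic hypoxia minus normoxia) over the 1038 tested genes in bins of 0.2, with the 3 40S rows marked by red lines whose height has no meaning. S3A at -1.95 lies in the lower tail, and S12 and S19 at 1.23 and 1.16 lie on the upper flank.

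The contrast between S3A and S19 can be read within each membrane, where background, exposure and scaling are shared. The pair was chosen for its opposite directions, so the values are a description with no test. The log2 ratio of the S3A to the S19 spot, from deposited intensities, was 3.77, 2.56 and 2.70 in normoxia. It was 0.10, -0.05 and 0.47 in chronic hypoxia. Every normoxia membrane had the higher ratio, with means of 3.01 ± 0.66 (SD, n = 3) and 0.17 ± 0.27 (SD, n = 3). With the membrane median taken off first, the ratios were 5.00, 3.60 and 3.09 against 0.11, -0.13 and 0.97. Background held in both spots pulls a ratio toward 0, so these sizes depend on how it is removed. On chronic hypoxia membrane 2 neither spot was above background, and S19 was not above it on normoxia membranes 1 and 2. The ratio restates the choice of the pair and adds no evidence on either gene, neither of which passed.

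**Figure D3:**
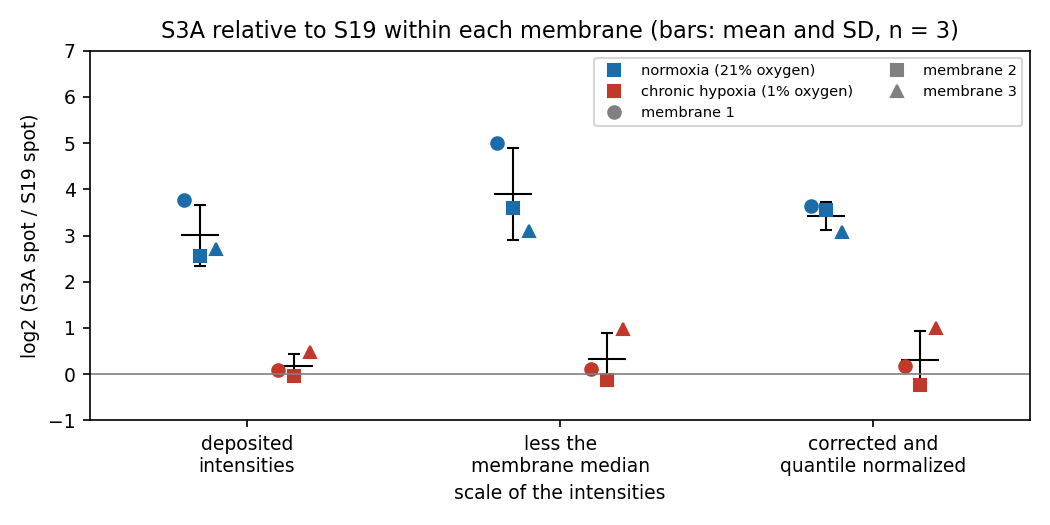
Log2 ratio of the S3A to the S19 spot within each membrane on 3 intensity scales, normoxia in blue and chronic hypoxia in red, marker shape giving the membrane number and bars the mean and SD (n = 3). On each scale the normoxia membranes lie at 2.56 or higher and the chronic hypoxia membranes at 1.00 or lower.

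The deposited intensities come on a finer grid of values on normoxia membrane 1 and chronic hypoxia membrane 1 than on normoxia membranes 2 and 3 and chronic hypoxia membrane 2. Chronic hypoxia membrane 3 follows neither grid. Treating the grid as a technical batch, the S3A difference was -1.55 within the fine grid (1 membrane against 1) and -2.90 within the coarse grid (1 against 2). S19 differed by 1.91 and 0.66, and S12 by 1.55 and 0.37. Each gene thus kept its sign within both grids, and the sizes of S19 and S12 were smaller in the coarse grid. All 3 coarse-grid values, that of S3A included, rest on chronic hypoxia membrane 2, where S3A and S19 were not above background. S12 on that membrane, at 13.34, lay below normoxia membrane 2, at 13.52, and above normoxia membrane 3, at 12.44. With the grid as a block, chronic hypoxia membrane 3 is alone in its block and adds nothing to the differences. In that fit the lowest limma adjusted p of the 3 was 0.791.

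**Figure D4:**
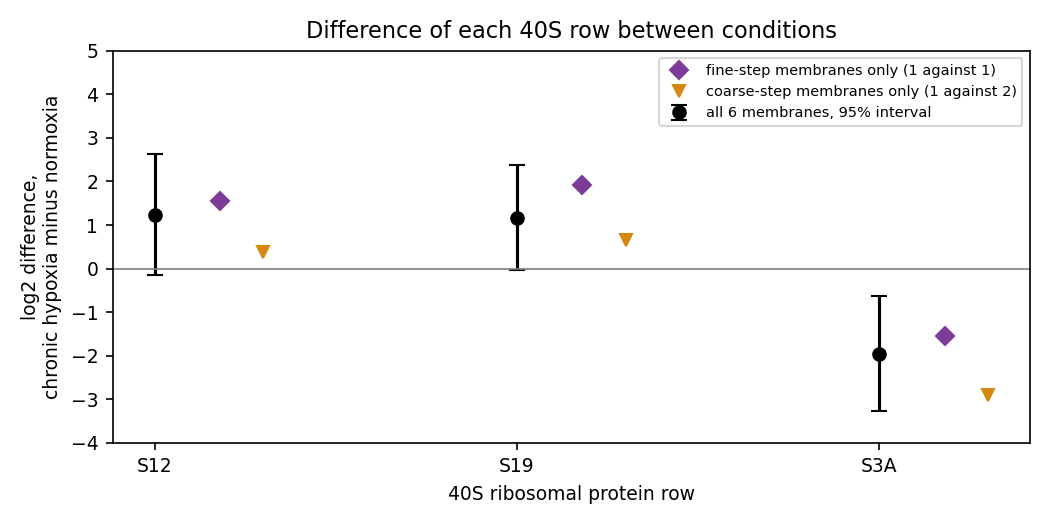
Log2 difference (chronic hypoxia minus normoxia) of each 40S row from all 6 membranes with its 95% interval (black), and within the membranes of the fine grid (fine-step, purple) and the coarse grid (coarse-step, orange), which carry no interval. The interval of S3A lies below 0 before adjustment over genes, and those of S12 and S19 reach below 0.

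Of the small subunit spots outside the set, S29, a zinc-binding head protein, varied most. Its intensities were 59578, 8170 and 65535 in normoxia and 6159, 65250 and 28243 in chronic hypoxia. High and low values occurred in both groups, and 2 lay within 5% of the ceiling. Its difference was -0.89 ± 0.97 (SE, limma adjusted p = 0.835). The S4 spot had intensities of 12284, 12822 and 18656 in normoxia and 8447, 5473 and 29927 in chronic hypoxia. Its normalized difference was -0.52 ± 0.55 (SE, limma adjusted p = 0.835), and its groups overlapped.

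On the normalized membrane scale the 3 rows named 60S (L44, L21 and L19) differed by 0.28 to 0.46, and with 4 further L rows, added after their values were seen, the range was -0.73 to 0.47. Of these 7 rows 0 passed, 0 had groups that did not overlap, and the lowest limma adjusted p was 0.764. The difference between the subunits was not tested. Other translation genes gave 0 of 7 passing, with 3 higher and 4 lower in mean signal. Besides eIF-5, eIF-4E, which binds the cap, differed by -0.42 (SE 0.86), and the alpha subunit of eIF-2, whose phosphorylation slows initiation, by 0.09 (SE 0.77). Elongation factor 2 differed by -0.52 (SE 0.69) and the mitochondrial elongation factor G by -1.27 (SE 0.98). Elongation factor SIII, a factor of transcription that the name search also takes in, differed by 0.71 (SE 1.29). None of the 7 was above background on chronic hypoxia membrane 2. The seventh, the ribosomal protein S6 kinase Rsk, is named because it was above background on no membrane.

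Among the other 151 spots above background on at least 3 membranes, those whose values followed S3A most closely over the 6 membranes were calcium/calmodulin-dependent protein kinase kinase (r = 0.932), amphiphysin II (r = 0.916) and proteasome component C8 (r = 0.912). S12 was followed most closely by the mitochondrial chaperone HSP60 (r = 0.961), a cytochrome c oxidase subunit Vb row (r = 0.919) and dopamine beta-hydroxylase (r = 0.906). These correlations of normalized log2 values rank genes over 6 membranes that share their background and scaling, and carry no test. None of these genes passed.

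In the authors' deposited table, which gives 1 normalized intensity per condition, S3A went from 46717 to 16820 between normoxia and chronic hypoxia (ratio 0.36). For S12 the authors' deposited table gave 4996 and 10239, a ratio of 2.05. S19 was listed there at 0 for normoxia and 4660 for chronic hypoxia, so it has no ratio in the authors' deposited table. The direction was that of the membranes for S3A and S12. It was opposite for S29, with a ratio of 1.25 in the authors' deposited table, and for L44, with a ratio of 0.507. L11, L12 and L13, at 0.958, 0.607 and 0.658 in the authors' deposited table, also had the opposite direction to their membrane differences of 0.36, 0.31 and 0.47. L21 had the membranes' direction and a ratio of 2.39 in the authors' deposited table, above that of S12. L10 and S4 also had the membranes' direction, at 0.645 and 0.548 in the authors' deposited table. So did L19, listed at 0 for normoxia and 3025 for chronic hypoxia in the authors' deposited table.

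Ribosomal protein genes have many near-identical copies in the rat genome, which hybridisation may not separate. RefSeq names 11 further entries after Rps3a, 13 after Rps12 and 20 after Rps19, as pseudogenes or like genes. The sequences of the spotted DNA were not used here, and the share of signal from such copies was not tested.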

How the data were processed

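Membranes (Atlas Rat 1.2) were scanned on a phosphorimager and quantified with AtlasImage V2.0, per the labels' protocols. The deposited intensity values are 1 linear brightness per spot and membrane, background included, with no scaling between membranes. The authors also deposited a table of 1 intensity per condition, per the labels an average of 3 membranes normalized to the average signal; its column medians are 0, and no source used here gives its scale or background removal. Intensities were corrected with normexp (offset 50), put on the log2 scale, quantile normalized and fitted with limma 3.58.1 in R 4.3.3 (lmFit, eBayes), group as the only term, Benjamini-Hochberg over the 1038 genes brighter than a membrane's 25th percentile on 3 or more of them. The 3 members described passed that filter; the other 2 are not reported here. Membrane numbers were not used to pair the membranes in the main fit. Deviations of equal numbers correlated at 0.09, 0.11 and 0.02, and those of unequal numbers at -0.12 to 0.03. Correlations this small cannot exclude weak pairing. Named genes are the members described, the rows named 60S, translation factors by name, and the 3 closest patterns of the members with the largest lower and higher difference. The members and lists were chosen with earlier results of these data known. The number of membranes limits the precision. Symbols were assigned by hand from deposited names and found in RefSeq (GRCr8). Tables were handled in Python 3.11.15 with pandas 2.3.3, numpy 2.4.6 and scipy 1.17.1, and plots drawn with matplotlib 3.10.9.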

Additional observations from a re-analysis of the deposited data

How the results depend on the processing

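Across the 16 other fits (normalization, background correction, filter, weights, blocks, each membrane left out, chronic hypoxia membranes 1 and 3, the pair most alike, averaged as 1), 0 genes and 0 of the 3 described 40S members passed. The lowest limma adjusted p of any gene was 0.0512, without normalization between membranes, close to the cutoff of 0.05. The lowest limma adjusted p of a member was 0.215, with membrane weights. S12, S19 and S3A kept their direction in each alternative run on the membranes, from 0.37 to 1.71, 0.66 to 1.91 and -2.90 to -1.25. The median of the 3 members ranged from 0.86 to 1.50 with a membrane left out and was 0.37 within the coarse grid. Without normalization the median of all genes shifted by -0.17, and S3A lay at -2.05 relative to it. With membrane number as a replicate block the differences were the same (S3A -1.95) and the lowest adjusted p of a member was 0.59; membranes of equal number did not correlate best in every case. At 2 or 5 times the spread, the members detected on 3 or more membranes numbered 3 and 3. The change of the S3A to S19 ratio, -2.84, was -3.58 with the median taken off and -3.12 after normalization, scales added after the data were seen. S19 was above background on 3 of 6 membranes, which limits its values.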
